A study of Homo sapiens with 12 samples.

Results

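The CCN family of matricellular proteins was followed through 12 RNA sequencing libraries of SW872 cells, a human liposarcoma line. Its 6 genes were found by symbol in the deposited count table, which lists 58735 gene IDs. The table uses their older names, CYR61 for CCN1, CTGF for CCN2, NOV for CCN3, WISP1 for CCN4, WISP2 for CCN5 and WISP3 for CCN6. All cells stably expressed a fusion oncoprotein of epithelioid hemangioendothelioma, a vascular sarcoma, either TAZ-CAMTA1 (TC) or YAP-TFE3 (YT). Besides the fusion, each line expressed a short hairpin RNA, either non-targeting (shNT) or directed at YEATS2 or ZZZ3, which belong to ATAC, a complex that acetylates histones. The 6 groups (TC shNT, TC shYEATS2, TC shZZZ3, YT shNT, YT shYEATS2 and YT shZZZ3) held 2 libraries each. The comparisons ask how far the expression of CCN genes under each fusion protein depended on each subunit. No SW872 library without a fusion protein was analysed here, so none of the values shows the effect of a fusion protein itself. The lines were pools selected for a viral construct. For lines without a hairpin, the study's methods describe collection below confluence for those containing CAMTA1 and after prolonged confluence for the others. Whether this included TAZ-CAMTA1 beside full-length CAMTA1, and whether it held for the hairpin lines, is not stated. Density at collection is thus not known, and may differ between TC and YT. Fusion protein and density cannot be told apart in values compared between TC and YT, and confluence is known to act on YAP and TAZ. Whether the libraries of a group came from separate transductions is not stated for the knock-downs, so the p values measure only the spread between these libraries.

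CCN proteins are secreted into the extracellular matrix, where they bind integrins, heparan sulfate proteoglycans and growth factors and so alter adhesion, migration and matrix formation. CCN1 and CCN2 are textbook targets of YAP and TAZ, which have no DNA-binding domain of their own and act through TEAD transcription factors. Both genes also respond to TGF-beta, serum and mechanical tension. CCN3 often restrains growth, CCN4 and CCN5 were named for their induction by Wnt1, and CCN6 is known from an inherited disease of cartilage. CCN5 differs from its relatives in lacking the C-terminal cystine-knot module.

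CCN1 (ENSG00000142871) lies on chr1:85580761-85584589 of GRCh38 on the plus strand, and CCN2 (ENSG00000118523) on chr6:131948176-131951372 on the minus strand. CCN5 (ENSG00000064205) is at chr20:44714844-44728509 and CCN6 (ENSG00000112761) at chr6:112054075-112069686, both on the plus strand. On the opposite strand, LINC01013 overlaps exons of CCN2 and the lncRNA ENSG00000286282 overlaps exons of CCN3. The libraries were stranded, but the strand setting of the counting is not given in the sources used here, so reads of these antisense genes cannot be told apart from those of CCN2 and CCN3 with certainty.

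The fusion proteins keep the TEAD-binding part of TAZ or YAP, so the promoter was read for the core of the TEAD site. RefSeq promoters (GRCh38.p14) were at hand for 2 members, CCN2 and CCN6. The 200 bases before the start of CCN2, chr6:131951373-131951572 on the minus strand, are shown because CCN2 was the member whose response to shZZZ3 differed between the lines. Capitals mark the TEAD core GGAATG.
CCN2 promoter: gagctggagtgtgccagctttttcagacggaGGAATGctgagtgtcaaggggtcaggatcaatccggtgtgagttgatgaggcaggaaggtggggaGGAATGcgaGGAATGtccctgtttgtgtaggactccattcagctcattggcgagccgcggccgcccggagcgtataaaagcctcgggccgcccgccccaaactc
The CCN2 window held GGAATG 3 times on the coding strand, at -169 to -164, -104 to -99 and -95 to -90 counted from the start site, and a TATAAA box at -32 to -27. Among 35116 RefSeq promoters of the same length (250 bases before to 50 after the start), 14% held GGAATG on either strand and 0.128% held it 3 times or more. The CCN6 window held GGAATG at -128 to -123 and, on the opposite strand, at -1 to 5. Neither window held the E-box CACGTG (in 7.26% of promoters), the AP-1 motif TGANTCA (in 7.71%) or a CArG box (in 1.29%), all searched on both strands. These matches describe letters and were not measured as binding here.

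Total counts ranged from 17451893 to 29294805 per library, and the test covered the 18415 genes that averaged 5 counts or more. YEATS2 was at 45.4 and 35.1 CPM in TC shYEATS2 against 113 and 123 in TC shNT, and at 33.9 and 38.5 CPM in YT shYEATS2 against 114 and 117 in YT shNT, and both falls passed (-1.54, adjusted p = 0.0138, and -1.68, adjusted p = 1.04e-04). ZZZ3 was at 21.9 and 22.7 CPM in TC shZZZ3 against 25.6 and 60.4 in TC shNT, a difference that did not pass (log2 fold change -0.94, adjusted p = 0.45). In YT shZZZ3, ZZZ3 was at 12.6 and 29.6 CPM against 71.2 and 49.1 in YT shNT, and the fall passed (-1.51, adjusted p = 0.0453). Replicate 1 of TC shNT thus lay close to the TC shZZZ3 libraries in ZZZ3, which bears on every result of shZZZ3 in the TC line. The level of ZZZ3 in YT shYEATS2 was also low, at 31.4 and 30.6 CPM (-0.95, adjusted p = 0.13). Of the liposarcoma and adipocytic markers, PPARG (36.7 to 109 CPM), LPL (73.2 to 286 CPM), MDM2 (17.8 to 36.3 CPM) and CDK4 (239 to 436 CPM) were present. CEBPA and PLIN1 reached at most 3.75 and 1.55 CPM. FABP4 and ADIPOQ, markers of mature fat cells, had at most 7 and 1 counts in a library. Replicates of a group never agreed within sampling noise. The chi-square per gene was largest in TC shNT (86.8), YT shZZZ3 (79.4) and TC shYEATS2 (44.1), and 8.87 to 14.7 in the other 3 groups. The differences between replicates 1 and 2 correlated across genes with r = 0.898 between TC shNT and YT shZZZ3, and in both groups replicate 1 had the lower ZZZ3. CCN2 was close between replicates in these 2 groups (38.5 and 41.8 CPM, and 30.3 and 30.4 CPM), whereas the 2 libraries of TC shYEATS2 stood apart in CCN1 and in endothelial markers. The blood markers PTPRC and CD68 had at most 3 and 1 counts. In such bulk samples fewer cells of a kind and less RNA per cell cannot be told apart.

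CCN1 and CCN2 were abundant, CCN3 and CCN4 were moderate, and CCN5 and CCN6 were close to the limit of detection. Scaled per kilobase of exon, the median level over the 12 libraries was 21.1 CPM per kb for CCN1, 17.8 for CCN2, 3.1 for CCN3, 1.57 for CCN4, 0.0911 for CCN5 and 0.00919 for CCN6. CCN1 and CCN2 stood at the percentiles 88.8 and 86.4 of this measure among the tested genes, CCN3 and CCN4 at 51.6 and 39.7, and CCN5 at 5.51. CCN6 had between 0 and 2 counts per library, a mean of 0.75, and was not tested. In the 6 libraries with 0 counts of CCN6 the depth allows a level of up to 0.122 to 0.16 CPM, taking 3 counts as the limit, which covers counting error only. The other 5 members were tested. Between its lowest and highest library CCN1 varied 4.26-fold, CCN3 3.45-fold, CCN2 2.52-fold and CCN4 2.34-fold.

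**Figure D1:**
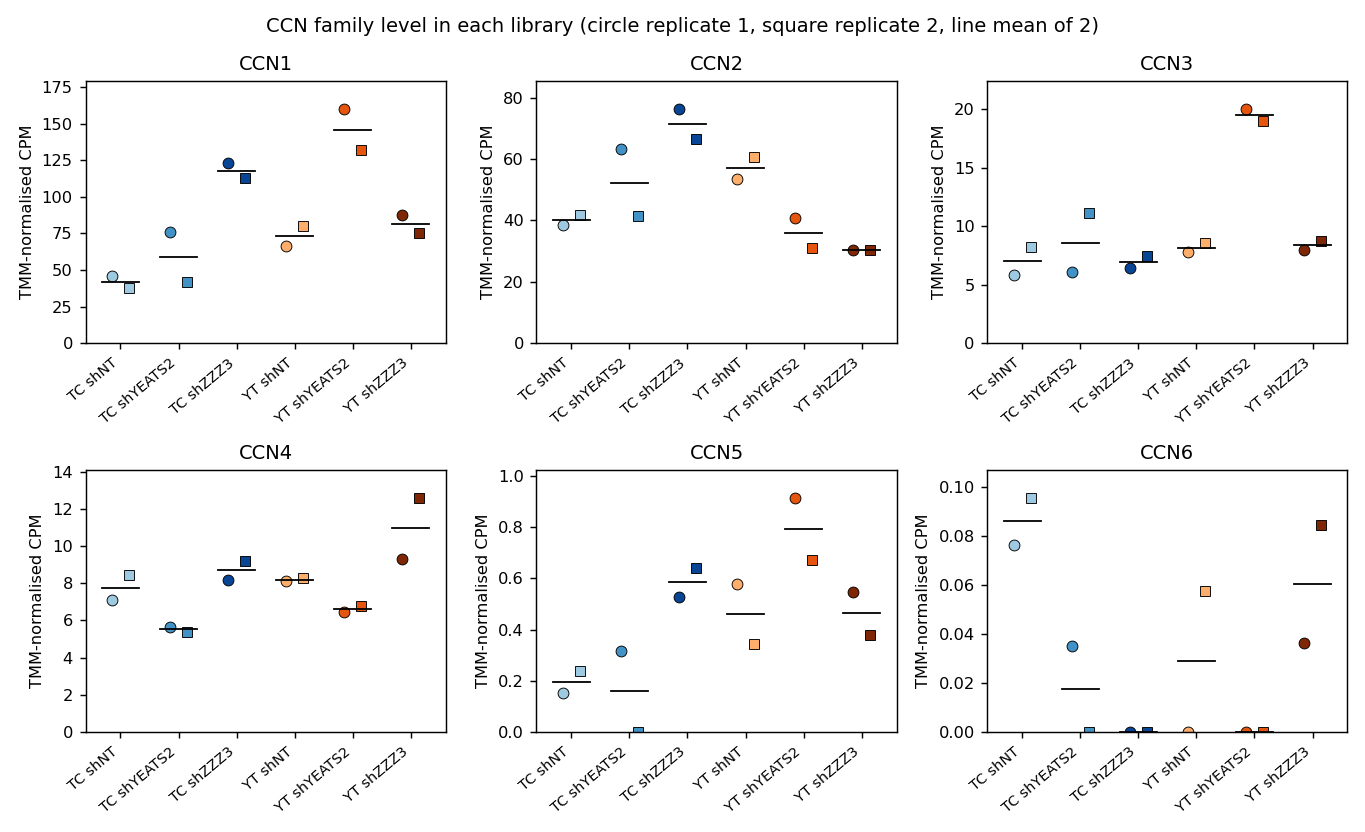
TMM-normalised CPM (y axis, from 0) of the 6 CCN genes in each library, by group (x axis), with replicate 1 as a circle, replicate 2 as a square and a line at the mean of the 2. CCN1 was highest in YT shYEATS2 (160 and 132 CPM), CCN2 in TC shZZZ3 (76.3 and 66.4 CPM) and CCN3 in YT shYEATS2 (20 and 19 CPM), and CCN6 reached at most 0.0955 CPM.

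CCN1 rose with shZZZ3 in TC and with shYEATS2 in YT, CCN3 rose with shYEATS2 in YT, and CCN2 fell with shZZZ3 in YT. A gene is called here where its adjusted p in edgeR's quasi-likelihood test was under 0.05. With shYEATS2 in the TC line 0 of the 5 members were called, beside 0.0434% of all genes tested, and 0 had an unadjusted p under 0.05 or were called by DESeq2. The shares of all genes count calls in both directions. They are at the adjusted threshold, and the share of all genes at an unadjusted p under 0.05 was not counted. With shZZZ3 in the TC line 1 of 5 rose, CCN1, beside 1.53% of all genes. The YT line had 2 of 5 higher with shYEATS2, CCN1 and CCN3, beside 20.7% of all genes. With shZZZ3 in that line 1 of 5 fell, CCN2, beside 10.0% of all genes. Counts this small, set beside these shares, describe single genes and not a response of the family.

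The effect of each hairpin was also compared between the lines, as the log2 fold change in YT minus that in TC. For shYEATS2 this difference called 0 of 5 members, beside 9.37% of all genes, while 2 had an unadjusted p under 0.05 and DESeq2 called 1. For shZZZ3 it called 1 of 5, CCN2, beside 4.32%. Under shNT the test between the YT and TC lines called 0 of 5 members, beside 9.23%, with 2 at an unadjusted p under 0.05 and 1 called by DESeq2. Under shYEATS2 they differed in 2 of 5, CCN1 and CCN3, beside 12.2%, and under shZZZ3 in 1 of 5, CCN2, beside 2.62%. Comparing the hairpins directly, shYEATS2 against shZZZ3, called 0 of 5 members in the TC line, beside 1.20%, with 3 at an unadjusted p under 0.05 and 1 called by DESeq2. In the YT line it called 1 of 5, CCN3, beside 7.21%. Comparisons that share a control group are not independent of each other.

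**Figure D2:**
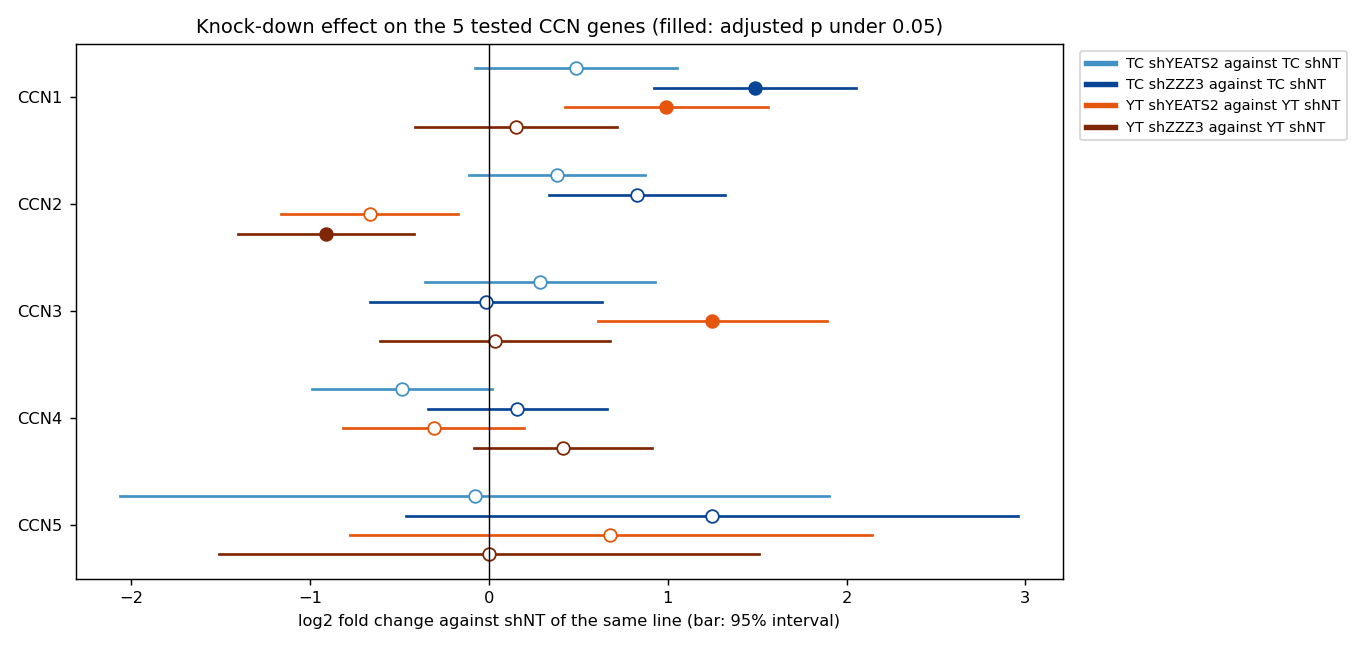
Log2 fold change of the 5 tested CCN genes (x axis) for each hairpin against shNT of the same line, with 95% intervals as bars, and filled points where the adjusted p was under 0.05. CCN1 rose with shZZZ3 in TC (1.49) and with shYEATS2 in YT (0.99), CCN3 rose with shYEATS2 in YT (1.25), and the CCN2 points lie right of 0 in the TC line and left of 0 in the YT line.

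CCN1, a secreted ligand of integrins that promotes adhesion and angiogenesis, rose with a different hairpin in each line. For CCN1, TC shNT gave 46.2 and 37.6 CPM, TC shYEATS2 75.7 and 41.8, TC shZZZ3 123 and 113, YT shNT 66.3 and 80.3, YT shYEATS2 160 and 132 and YT shZZZ3 87.5 and 75.4. Both TC shZZZ3 libraries lay above all TC shNT and TC shYEATS2 libraries, and both YT shYEATS2 libraries lay above all others of the series. Ordered by mean, the groups ran from TC shNT (41.9 ± 6.13 CPM, SD, n = 2) through TC shYEATS2 (58.8 ± 24), YT shNT (73.3 ± 9.96), YT shZZZ3 (81.5 ± 8.56) and TC shZZZ3 (118 ± 7.34) to YT shYEATS2 (146 ± 20). Neighbours in this order overlapped from TC shNT up to YT shZZZ3, and the upper 2 groups stood apart from each other and from the rest.

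In the TC line, CCN1 rose with shZZZ3 by a log2 fold change of 1.49 (SE 0.258, 2.8-fold, adjusted p = 0.0171). The change with shYEATS2 was 0.49 (95% interval -0.08 to 1.05, adjusted p = 1), and it rested on replicate 1 of TC shYEATS2, without which it was -0.023. The rise with shZZZ3 kept its direction without any 1 of the 4 libraries (1.32 to 1.63), and its call was lost without replicate 2 of TC shNT (adjusted p = 0.0804), replicate 1 of TC shZZZ3 (0.155) or replicate 2 of TC shZZZ3 (0.111). It held without replicate 1 of TC shNT, the control library with little ZZZ3 (1.63, adjusted p = 0.0396). A fit with a library left out assumes that the lone library varies like the other groups. The hairpins differed in CCN1 by -1.0 (shYEATS2 minus shZZZ3), which did not pass (adjusted p = 0.104), with a 95% interval of -1.56 to -0.44. It passed in 4 of 7 other settings, among them DESeq2 (0.0176), no low-count filter (0.00265) and the GC correction (0.0382). It did not pass with RLE size factors (0.0974) or library totals (0.0953). Without replicate 1 of TC shYEATS2 the difference was -1.48.

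In the YT line, CCN1 rose with shYEATS2 by 0.99 (SE 0.257, 1.99-fold, adjusted p = 0.0202), and the value with shZZZ3 was 0.15 (95% interval -0.41 to 0.72, adjusted p = 0.768). The rise stayed between 0.86 and 1.15 without any 1 of the 4 libraries, but the call ended without each of them: replicate 1 (adjusted p = 0.156) or 2 (0.0641) of YT shNT, and replicate 1 (0.13) or 2 (0.057) of YT shYEATS2. The hairpins differed by 0.84, which missed the threshold (adjusted p = 0.0787) and passed in DESeq2 (0.0289), without the low-count filter (0.0117), with the GC correction (0.0291) and in the fit to these groups alone (0.0307). It did not pass with RLE size factors (0.0728) or library totals (0.0748). Between the lines, the effect of shZZZ3 on CCN1 was lower in YT than in TC by a difference of -1.34 (95% interval -2.13 to -0.54), which missed the threshold (adjusted p = 0.0687) and passed in DESeq2 (0.0162), without the low-count filter (0.00576), with the GC correction (0.0248) and in the fit to these groups alone (0.0397). RLE size factors (0.0672) and library totals (0.0556) did not call it. The effect of shYEATS2 differed by 0.50 (adjusted p = 0.44), so the rise in YT was not shown to differ from the value in TC.

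Compared line with line, CCN1 was higher in YT than in TC under shYEATS2, by 1.31 (SE 0.257, adjusted p = 0.00707). Leaving out replicate 1 of YT shYEATS2 ended this call (1.16, adjusted p = 0.0792), and without replicate 1 of TC shYEATS2 the difference was 1.79. Under shNT the difference was 0.81 and did not pass (adjusted p = 0.079), with both YT libraries above both TC libraries. It passed in 4 of 7 other settings, among them DESeq2 (0.0359), no low-count filter (0.0213) and the GC correction (0.0323). It did not pass with RLE size factors (0.0755) or library totals (0.063). Under shZZZ3 it was -0.53 (adjusted p = 0.446), with both YT libraries below both TC libraries.

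CCN2, the profibrotic member better known as connective tissue growth factor, responded differently to shZZZ3 in the 2 lines. For CCN2, TC shNT gave 38.5 and 41.8 CPM, TC shYEATS2 63.3 and 41.3, TC shZZZ3 76.3 and 66.4, YT shNT 53.4 and 60.6, YT shYEATS2 40.7 and 31.1 and YT shZZZ3 30.3 and 30.4. Both hairpin groups of YT lay below both YT shNT libraries, whereas both TC shZZZ3 libraries lay above both TC shNT libraries. The order of group means ran from YT shZZZ3 (30.3 ± 0.0891 CPM, SD, n = 2) through YT shYEATS2 (35.9 ± 6.78), TC shNT (40.1 ± 2.31), TC shYEATS2 (52.3 ± 15.6) and YT shNT (57 ± 5.08) to TC shZZZ3 (71.3 ± 6.97). The groups from YT shYEATS2 to YT shNT overlapped with their neighbours, and the lowest and the highest group did not.

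CCN2 fell with shZZZ3 in the YT line by 0.91 on the log2 scale (SE 0.225, 1.88-fold lower, adjusted p = 0.0269). With shYEATS2 the value was -0.67 (95% interval -1.16 to -0.17), just outside the threshold (adjusted p = 0.0571), and it passed in DESeq2 (0.0388), with library totals as the scaling (0.0457), with the GC correction (0.0116) and in the fit to these groups alone (0.00188). These settings also called more of all genes, 4393, 3860 and 5711 of 18415 in the first 3, against 3821 as reported. The fit to these groups alone called 8784 of 18063. The CCN2 value with shYEATS2 did not pass with RLE size factors (0.0605) or without the low-count filter (0.0582). The difference between the hairpins in YT was 0.24 (95% interval -0.25 to 0.74, adjusted p = 0.593). The call with shZZZ3 ended without any 1 of the 4 libraries, replicate 1 (adjusted p = 0.106) or 2 (0.205) of YT shNT and replicate 1 (0.113) or 2 (0.0687) of YT shZZZ3, with values from -0.98 to -0.79.

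In the TC line the CCN2 value with shZZZ3 was 0.83 (95% interval 0.34 to 1.32), which did not pass (adjusted p = 0.124) but passed in 1 of 7 other settings, DESeq2 (0.0317). That with shYEATS2 was 0.38 (-0.11 to 0.87, adjusted p = 1), and without replicate 1 of TC shYEATS2 it was 0.020. The test of the difference between the lines passed for shZZZ3. Its value, YT minus TC, was -1.74 (SE 0.318, 95% interval -2.43 to -1.04, adjusted p = 0.0123), a 3.34-fold lower ratio of shZZZ3 to shNT in YT. This call held in 7 of 7 other settings, without replicate 1 of TC shNT (-1.64, adjusted p = 0.0273), without replicate 1 (-1.67, adjusted p = 0.0349) or 2 (-1.72, adjusted p = 0.0277) of YT shZZZ3, and barely without replicate 1 of YT shNT (-1.78, adjusted p = 0.05 when rounded). It ended without replicate 1 of TC shZZZ3 (-1.64, adjusted p = 0.0691) or replicate 2 of YT shNT (-1.58, adjusted p = 0.0825). The same difference for shYEATS2 was -1.05 (adjusted p = 0.0634), and 3 of 7 other settings called it, among them DESeq2 (0.0295) and the GC correction (0.0177). It also passed without replicate 2 of TC shYEATS2 (-1.29, adjusted p = 0.0197).

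Under shZZZ3, CCN2 was lower in YT than in TC by a log2 difference of -1.23 (SE 0.225, adjusted p = 0.0141). That call ended without each of the 4 libraries, with values from -1.33 to -1.13 and adjusted p values of 0.16 and 0.0824 without replicates 1 and 2 of TC shZZZ3 and 0.0703 and 0.0727 without replicates 1 and 2 of YT shZZZ3. Under shNT the difference was 0.51 (adjusted p = 0.198), and under shYEATS2 it was -0.54 (adjusted p = 0.15). The latter passed without replicate 2 of TC shYEATS2 (-0.82, adjusted p = 0.039).

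CCN3 (ENSG00000136999, chr8:119416446-119424434, plus strand), a member that restrains growth in several cell types, was highest in both libraries of YT shYEATS2. For CCN3, TC shNT gave 5.8 and 8.26 CPM, TC shYEATS2 6.06 and 11.1, TC shZZZ3 6.45 and 7.42, YT shNT 7.76 and 8.56, YT shYEATS2 20 and 19 and YT shZZZ3 7.96 and 8.75. The 5 other groups overlapped with their neighbours in the order of means, from 6.94 ± 0.687 CPM (SD, n = 2) in TC shZZZ3 to 8.6 ± 3.6 in TC shYEATS2, and YT shYEATS2 was at 19.5 ± 0.691. Both YT shYEATS2 libraries lay above all 10 others. CCN3 rose with shYEATS2 in YT by 1.25 (SE 0.291, 2.38-fold, adjusted p = 0.0118), and shZZZ3 gave 0.03 (95% interval -0.61 to 0.68, adjusted p = 0.961). The hairpins differed by 1.22 (SE 0.288, adjusted p = 0.0265).

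The difference of the shYEATS2 effect on CCN3 between YT and TC was 0.97 (95% interval 0.06 to 1.87) and did not pass (adjusted p = 0.177), except without replicate 2 of TC shYEATS2 (1.49, adjusted p = 0.0313). With shYEATS2 in both, CCN3 was higher in YT than in TC by 1.18 (SE 0.288, adjusted p = 0.0213). Without 1 library at a time the rise in YT stayed between 1.18 and 1.34, but its call ended without replicate 1 (adjusted p = 0.108) or 2 (0.07) of YT shNT and without replicate 1 (0.0703) or 2 (0.059) of YT shYEATS2. The difference between the hairpins lost its call likewise (0.171 and 0.14 without replicates 1 and 2 of YT shYEATS2, 0.0954 and 0.0833 without those of YT shZZZ3) and also with library totals as the scaling (1.16, adjusted p = 0.0578). The difference between the lines under shYEATS2 lost it without replicate 1 of TC shYEATS2 (0.80, adjusted p = 0.132) or without replicate 1 (1.14, adjusted p = 0.132) or 2 (1.21, adjusted p = 0.0985) of YT shYEATS2. In the TC line the values were 0.28 with shYEATS2 (adjusted p = 1) and -0.02 with shZZZ3 (adjusted p = 0.996). The first of these was -0.23 without replicate 2 of TC shYEATS2, so no direction can be given there.

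CCN4 (ENSG00000104415, chr8:133191039-133231690, plus strand), a Wnt-responsive member, had lower levels in both libraries of either shYEATS2 group than in the shNT libraries of the same line, but no test of it passed in the fit reported here. With 2 libraries a group such a separation can arise by chance, and the share of all genes that separated was not counted. For CCN4, TC shNT gave 7.09 and 8.45 CPM, TC shYEATS2 5.67 and 5.37, TC shZZZ3 8.2 and 9.19, YT shNT 8.12 and 8.28, YT shYEATS2 6.45 and 6.76 and YT shZZZ3 9.31 and 12.6. The order of means began with TC shYEATS2 (5.52 ± 0.212 CPM, SD, n = 2) and YT shYEATS2 (6.6 ± 0.218), which did not overlap with each other or with TC shNT above them. TC shNT, YT shNT and TC shZZZ3 overlapped with their neighbours, and YT shZZZ3 was highest (11 ± 2.32). The log2 fold changes with shYEATS2 were -0.48 in TC (95% interval -0.99 to 0.02, adjusted p = 1) and -0.31 in YT (-0.82 to 0.20, adjusted p = 0.357). Those with shZZZ3 were 0.16 in TC (adjusted p = 0.912) and 0.41 in YT (adjusted p = 0.292). In YT the hairpins differed in CCN4 by -0.72 (95% interval -1.22 to -0.22), which missed the threshold (adjusted p = 0.0827). This difference passed in 2 of 7 other settings, DESeq2 (0.0495) and the GC correction (0.0221). Without replicate 1 of YT shZZZ3 it was -0.97. In TC the hairpins differed by -0.65 (adjusted p = 0.282).

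CCN5, the member without the C-terminal module, was sparse. For it, TC shNT gave 4 and 5 counts, TC shYEATS2 9 and 0, TC shZZZ3 13 and 12, YT shNT 11 and 6, YT shYEATS2 22 and 13 and YT shZZZ3 15 and 9. At these counts no test of it passed with all libraries and the filter. The library with 0 counts allows up to 0.151 CPM, while the highest library reached 0.915 CPM. Its largest difference lay between the lines under shYEATS2, at 1.74 (95% interval 0.05 to 3.43, adjusted p = 0.0805), and it passed without replicate 1 of TC shYEATS2 (3.28, adjusted p = 0.00811), which leaves a group of 1 library at 0 counts. The same omission made the difference between the hairpins in TC pass (-2.87, adjusted p = 0.0368, against -1.33 and 0.486 with all libraries), and without the low-count filter the difference between the lines passed (1.73, adjusted p = 0.0121). For CCN6, TC shNT gave 2 and 2 counts, TC shYEATS2 1 and 0, TC shZZZ3 0 and 0, YT shNT 0 and 1, YT shYEATS2 0 and 0 and YT shZZZ3 1 and 2. All groups of CCN6 were thus under the limit of 3 counts per library, and no fold is given.

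The balance between CCN1 and CCN2, compared per kilobase, lay more towards CCN1 than under shNT of the same line in both libraries of 3 of the 4 knock-down groups. As the ratio of CCN1 to CCN2, TC shNT gave 0.759 and 0.569, TC shYEATS2 0.756 and 0.641 and TC shZZZ3 1.02 and 1.07. In the other line, YT shNT gave 0.784 and 0.838, YT shYEATS2 2.49 and 2.68 and YT shZZZ3 1.83 and 1.57. Libraries of TC shNT, TC shYEATS2 and YT shNT reached at most 0.838, and all others were at 1.02 or more. Mean CCN1 was 146 CPM in YT shYEATS2 and 81.5 CPM in YT shZZZ3, and mean CCN2 was 35.9 and 30.3 CPM. Neither gene's difference between these hairpins passed in edgeR (adjusted p = 0.0787 for CCN1 and 0.593 for CCN2). With 2 libraries a group an exact permutation test of a ratio cannot pass, no other test of it was run, and it is given as a description. Of the family's level per kilobase, CCN1 made up 34.6% in TC shNT and 61.9% in YT shYEATS2, CCN2 52.4% and 24%, and CCN3 8.2% and 11.8%.

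**Figure D3:**
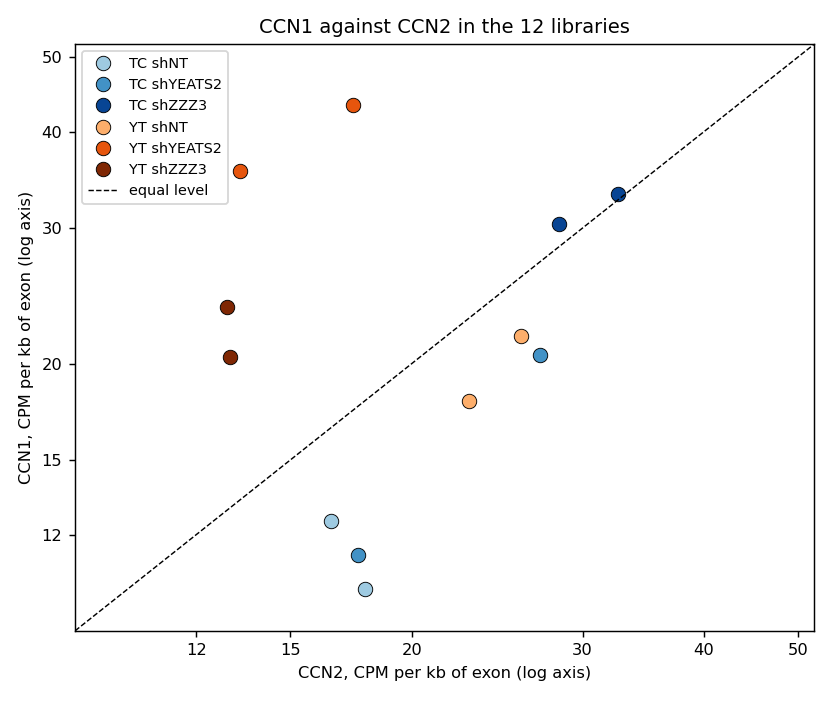
CCN1 (y axis) against CCN2 (x axis) in the 12 libraries, both as CPM per kb of exon on log axes, coloured by group, with a dashed line where they are equal. The YT shYEATS2 and YT shZZZ3 libraries lie well above the line (ratios of 1.57 to 2.68), the TC shZZZ3 libraries on it (1.02 and 1.07), and the other 3 groups below it.

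Over the 12 libraries the members did not vary as a unit. Pearson's r of log2 CPM was 0.147 between CCN1 and CCN2, 0.45 between CCN1 and CCN3, -0.463 between CCN2 and CCN3, and 0.817 between CCN1 and the sparsely counted CCN5. The libraries fall into 6 groups, so these values describe group differences and carry no p. Among the 13257 genes that averaged 50 counts or more, the 5 whose levels followed CCN1 most closely were LIPH, ITGA3, NEDD9, MICAL2 and ABCB4 (r from 0.96 to 0.929). For CCN2 they were AMOTL2, PIM1, PLEKHA6, TRIM58 and SMAD3 (0.946 to 0.918), and for CCN3 they were SVEP1, PTPRO, SPRED2, TMTC1 and SLC44A3 (0.977 to 0.961). AMOTL2 codes for an angiomotin and is a known target of YAP and TAZ, and SMAD3 transmits TGF-beta signals. CCN4 was matched less closely, by ABCB10, XAGE3, SUN1, DPY19L1 and YEATS2 (0.857 to 0.815), the last being the hairpin target itself.

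Other target genes of YAP and TAZ moved both ways in the YT line. None of the 20 listed passed in TC with either hairpin, beside 0.0434% of all genes with shYEATS2 and 1.53% with shZZZ3. Their median log2 fold changes there were 0.14 with shYEATS2 and 0.44 with shZZZ3, beside -0.01 over all genes for both. At an unadjusted p under 0.05 there were 2 and 11 of them. The share of all genes at that threshold was not counted, so no excess can be read from these counts. With shYEATS2 in YT 4 rose and 5 fell, in a comparison that called 20.7% of all genes. ANKRD1, a muscle ankyrin repeat protein, rose by 2.99 (adjusted p = 1.94e-04), F3, tissue factor, by 1.39 (0.0121), and CCDC80, a matrix protein, by 1.20 (6.36e-04). FOXF2, a mesenchymal transcription factor (-1.5, adjusted p = 9.68e-04), LATS2, the Hippo kinase (-1.24, 0.00119), and NT5E, the ectonucleotidase CD73 (-1.20, 0.00478), fell. With shZZZ3 in YT, where 10.0% of all genes were called, 1 rose, ANKRD1 (2.85, adjusted p = 8.25e-04), and 6 fell, led by AMOTL2 (-1.26, 0.0131), LATS2 (-1.24, 0.00257) and IGFBP3, an IGF carrier (-1.06, 0.00916). The called genes of this list thus included falls beside CCN2 and rises beside CCN1 within the same line.

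For AMOTL2, closest to CCN2 in pattern, TC shNT gave 57.8 and 51.5 CPM, TC shZZZ3 116 and 95, YT shNT 94.1 and 101, and YT shZZZ3 44.5 and 36.7. Like CCN2 it was higher with shZZZ3 than with shNT in both TC libraries and lower in both YT libraries. Its likeness to CCN2 was found in these same libraries, so the shared direction is a description and not a separate result. ANKRD1 was low under shNT, at 0.686 and 0.955 CPM in the TC line and 1 and 0.69 in the YT line, against 8.74 and 5.93 CPM for YT shYEATS2 and 5.24 and 8.11 for YT shZZZ3. The shZZZ3 effect, YT minus TC, called 2 of the 20 targets higher, ANKRD1 (3.10, adjusted p = 0.00827) and CCDC80 (1.19, adjusted p = 0.0176), and 5 lower, with AMOTL2 (-2.21, adjusted p = 0.00911), LATS2 (-1.83, adjusted p = 0.00417) and FOXF2 (-1.44, adjusted p = 0.0247) lowest. The median of the list in that contrast was -0.55, against 0.04 over all genes, of which 4.32% were called.

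Between the lines under shYEATS2, 5 of the 20 targets were higher in YT and 0 lower (12.2% of all genes called), with ANKRD1 (2.33, adjusted p = 7.76e-04), F3 (1.44, 0.0141) and AXL, a receptor kinase (1.40, 0.0034), in front. Under shZZZ3, with 2.62% of all genes called, 1 was higher, ANKRD1 (3.16, adjusted p = 7.80e-04), and 2 were lower, AMOTL2 (-1.37, 0.0201) and LATS2 (-0.99, 0.0186). In YT, shYEATS2 against shZZZ3 called 7.21% of all genes and gave 4 targets higher and 1 lower, NT5E (-1.08, adjusted p = 0.0183). Higher there were F3 (1.18, adjusted p = 0.0499), IGFBP3 (0.85, 0.0323) and CCDC80 (0.68, 0.0317), with 1 more gene.

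**Figure D4:**
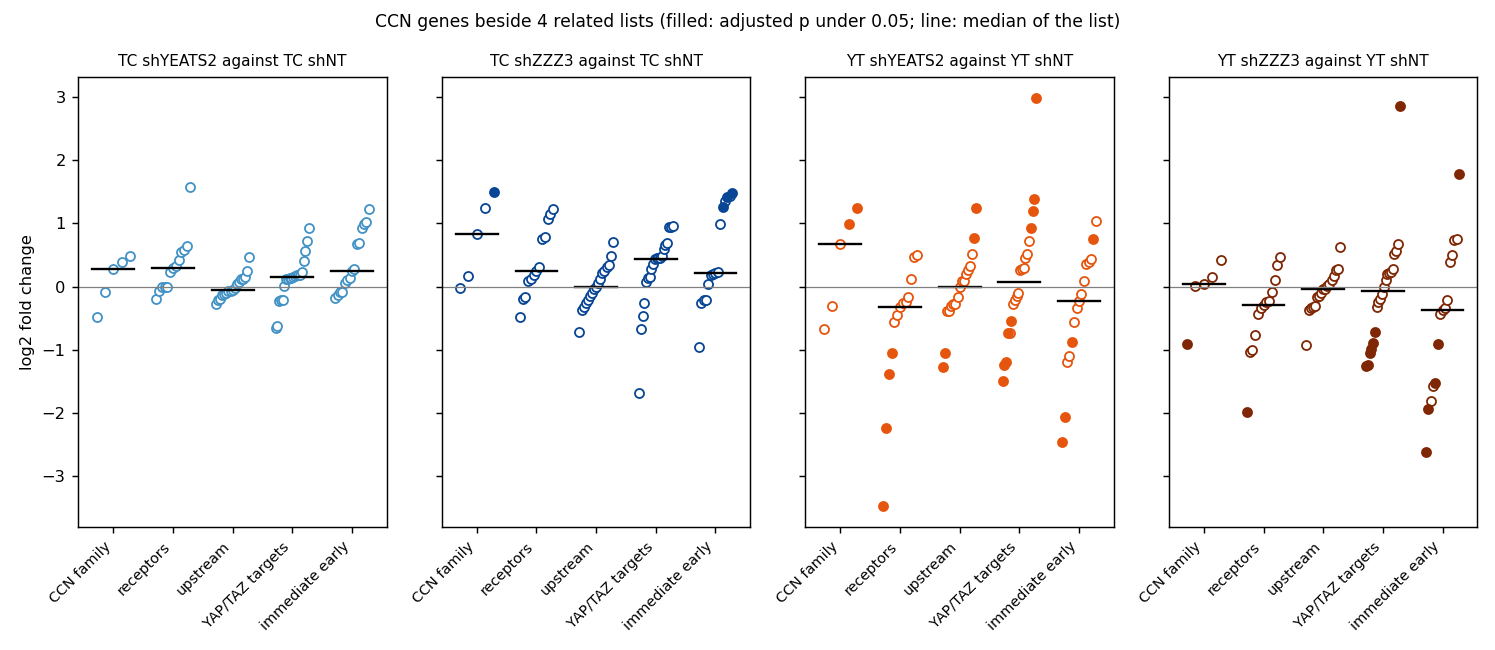
Log2 fold changes (y axis) of the CCN genes and of 4 related lists in the 4 comparisons of a hairpin with shNT, each gene a point, filled where the adjusted p was under 0.05, with a line at the median of each list. Filled points of the lists are few in TC (3 immediate early genes with shZZZ3) and lie on both sides of 0 in YT, where ANKRD1 is the highest point (2.99 and 2.85).

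Of the receptors and binding partners of CCN proteins, 4 fell with shYEATS2 in YT (20.7% of all genes called) and 1 with shZZZ3 (10.0%). None of the 13 listed passed in TC with either hairpin (2 with shYEATS2 and 5 with shZZZ3 at an unadjusted p under 0.05). Those comparisons called 0.0434% and 1.53% of all genes. With either hairpin in YT 0 rose, and those that fell with shYEATS2 included ITGAM, an integrin subunit mainly of myeloid cells (-2.24, adjusted p = 0.0025), ITGB3, the beta subunit of the vitronectin receptor that binds CCN1 and CCN2 (-1.38, 0.0156), and NOTCH1, a receptor bound by CCN3 (-1.06, 0.0163). ITGAM was low throughout, at no more than 1 CPM. For ITGB3, YT shNT gave 28.3 and 31 CPM, YT shYEATS2 12.3 and 10.4, YT shZZZ3 14.6 and 14.3, and TC shNT 6.63 and 6.73. The shZZZ3 effect, YT minus TC, was lower for 2 of the 13, beside 4.32% of all genes called. ITGB3 was among them (-2.18, adjusted p = 0.0266) and was thus called in the same contrast as CCN2. Under shYEATS2, 4 of the 13 were lower in YT than in TC, beside 12.2% of all genes called. ITGB2 (-1.83, adjusted p = 0.0115) and ITGAM (-1.35, adjusted p = 0.0459) were among them. Under shZZZ3, 1 was lower, ITGB2 (-2.59, adjusted p = 0.00352), beside 2.62%. Between the hairpins in YT 0 of the 13 passed (3 at an unadjusted p under 0.05), beside 7.21% of all genes.

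Regulators upstream of CCN genes were called about as often as all genes with shYEATS2 in YT, 4 of 17 beside 20.7%. Of 17 listed, none passed in TC with shYEATS2, in TC with shZZZ3 or in YT with shZZZ3 (0, 2 and 2 at an unadjusted p under 0.05). Those comparisons called 0.0434%, 1.53% and 10.0% of all genes. With shYEATS2 in YT 2 rose, TGFBR2, the TGF-beta receptor subunit (1.25, adjusted p = 9.97e-04), and WWTR1, which codes for TAZ (0.77, 0.0198), and 2 fell, TEAD4 (-1.28, 0.00794) and TEAD1 (-1.05, 0.0198). For TGFBR2, YT shNT gave 205 and 217 CPM, YT shYEATS2 532 and 470 and YT shZZZ3 198 and 211. TEAD4 was at 44 and 41.8 CPM in YT shNT and at 17.3 and 17.8 in YT shYEATS2. TGFBR2 was also called higher with shYEATS2 than with shZZZ3 in YT (1.29, adjusted p = 0.00205), in YT than in TC under shYEATS2 (1.83, 1.35e-04) and under shZZZ3 (0.98, 0.0182). Under shYEATS2, where 12.2% of all genes were called, 3 of the 17 were higher in YT than in TC, with TGFB1 (1.15, adjusted p = 0.0435) and WWTR1 (0.73, 0.0362) beside TGFBR2, and 2 were lower, TEAD4 (-1.3, 0.0105) and TGFB3 (-0.91, 0.00751). The shZZZ3 effect, YT minus TC, called 0 of the 17 (4 at an unadjusted p under 0.05), beside 4.32% of all genes. Reads of the TAZ and YAP parts of the fusion constructs may be counted under WWTR1 and YAP1, so the levels of these 2 genes mix native and introduced transcripts.

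Immediate early genes respond, like CCN1, within minutes to serum and stress. Of 15 listed, 3 rose in TC with shZZZ3 (1.53% of all genes called), FOSL1 (1.48, adjusted p = 0.029), ATF3 (1.42, 0.0146) and JUN (1.26, 0.022), all AP-1 or related factors. None passed in TC with shYEATS2 (4 at an unadjusted p under 0.05), beside 0.0434% of all genes. In YT with shYEATS2 (20.7% of all genes called), JUN rose (0.76, adjusted p = 0.0404) and 3 fell, ATF3 (-2.46, 7.68e-05), KLF4 (-2.07, 0.00111) and FOS. In YT with shZZZ3 (10.0%), JUN rose (1.78, adjusted p = 0.00125) and 4 fell, led by EGR3 (-2.62, 0.00598), ATF3 (-1.94, 8.31e-04) and KLF4 (-1.52, 0.0102). Called together with CCN2, the shZZZ3 effect was lower in YT than in TC for ATF3 (-3.36, adjusted p = 5.91e-04), KLF4 (-2.88, 0.00529) and FOSL1 (-1.92, 0.0233), and higher for none, beside 4.32% of all genes. Under shYEATS2 (12.2% of all genes called), 1 was higher and 1 lower in YT than in TC, EGR3 being the former (1.86, adjusted p = 0.0239). Under shZZZ3 (2.62%) none passed (3 at an unadjusted p under 0.05). Between the hairpins in YT (7.21% of all genes called), EGR3 was higher with shYEATS2 (2.29, adjusted p = 0.0141) and 2 were lower, JUN among them (-1.02, 0.0208). EGR3 was low, at 0.182 and 0.38 CPM in YT shZZZ3, where 3 counts stand for 0.109 and 0.127 CPM. In TC shYEATS2 it was at 0.282 and 0.552 CPM.

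Cell type markers moved in some of the same comparisons. Of all genes, 10.0% were called with shZZZ3 and 20.7% with shYEATS2 in YT, and 1.53% with shZZZ3 in TC. With shZZZ3 in YT, 2 of 4 endothelial markers rose, PECAM1 (3.08, adjusted p = 0.00242) and CDH5 (1.93, adjusted p = 0.0121). Their list summed to 137 to 139 CPM in YT shZZZ3, 40.5 to 42.2 in YT shNT, 31.7 to 33.6 in YT shYEATS2, 65.4 to 74.4 in TC shNT, 51.7 to 56.5 in TC shZZZ3 and 46.8 to 244 in TC shYEATS2. None of the 4 was at 0 in any library. The 2 TC shYEATS2 libraries thus stood far apart in these markers, as they did in CCN1. Of 5 mesenchymal markers, VIM and COL1A1 rose and FN1, fibronectin, fell in YT with shZZZ3 (1.37, 1.57 and -1.63, adjusted p = 0.00416, 0.00323 and 0.00461). FN1 also fell in TC with shZZZ3 (-1.29, adjusted p = 0.0465), and VIM and SPARC rose in YT with shYEATS2 (1.47 and 0.74, adjusted p = 0.00129 and 0.0278). That list summed to 7723 to 8074 CPM in YT shZZZ3 and 7061 to 8360 in TC shZZZ3, against 11286 to 13530 in YT shNT and 12414 to 13854 in TC shNT. FN1 had the widest range of the 5, 2576 to 10533 CPM over all libraries, and so weighs most in differences of the sum. The list's median log2 fold change with shZZZ3 was 0.44 in YT and -0.16 in TC. CEBPA, an adipocytic factor, fell in YT with shYEATS2 (-3.56, adjusted p = 4.39e-04) and with shZZZ3 (-1.54, adjusted p = 0.0324), as 1 of the 6 tested markers of a list that summed to 431 to 656 CPM over all libraries. In the contrasts between lines and hairpins that called a CCN member, markers were called as well. Of all genes, 4.32% were called for the ZZZ3 difference and 7.21% between the hairpins in YT. Between the lines it was 12.2% under shYEATS2 and 2.62% under shZZZ3. The shZZZ3 effect, YT minus TC, was higher for VIM (1.3, adjusted p = 0.0462), COL1A1 (2.11, 0.00798) and PECAM1 (3.97, 0.00735). Under shYEATS2, CDH5, KDR, COL1A1, COL1A2 and CEBPA were lower in YT than in TC (-3.37 to -2.01) and VIM higher (0.85). Under shZZZ3, PECAM1 (2.91, adjusted p = 0.00636) and VWF (1.71, 0.0292) were higher in YT than in TC, and COL1A2 (-2.9, 9.64e-05) and the epithelial CDH1 (-2.21, 0.0388) lower. Between the hairpins in YT, PECAM1, CDH5, COL1A1 and CEBPA were lower with shYEATS2 (-2.83 to -1.34) and CDH1 higher (2.05, adjusted p = 0.0281). The 3 epithelial markers summed to at most 2.58 CPM in any library. The part of these markers in the CCN values was not tested.

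**Figure D5:**
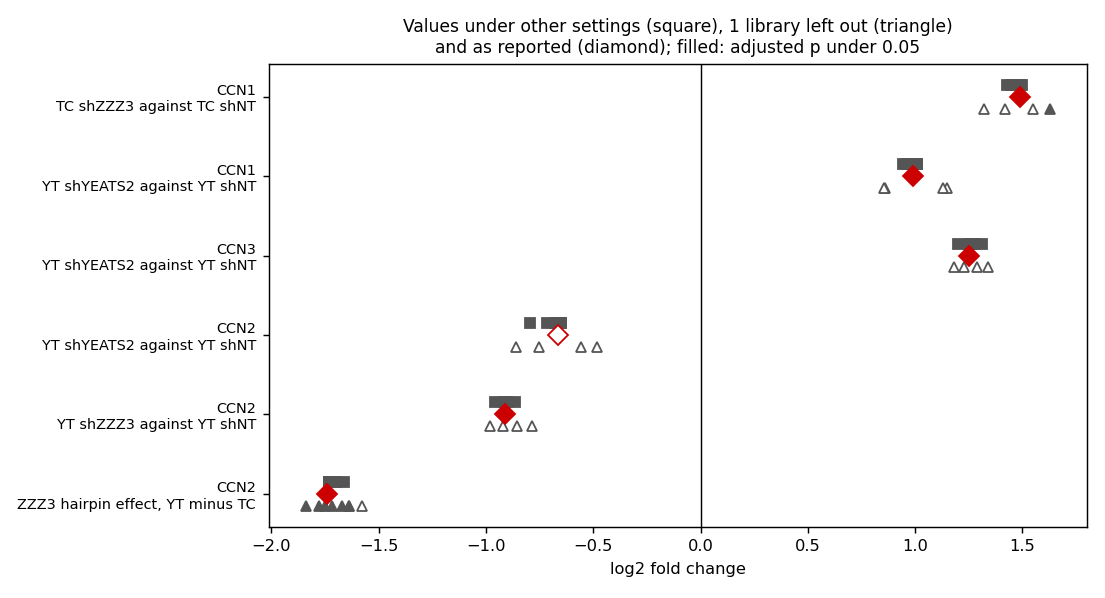
Log2 fold change (x axis) of the CCN results named at the left as reported (diamond), under 7 other settings (squares) and with 1 library left out at a time (triangles), filled where the adjusted p was under 0.05. No point changes sign, the squares stay filled for the 5 called results, 5 of 7 overlapping squares are filled for CCN2 with shYEATS2 in YT, and leaving out 1 library empties most triangles, with the ZZZ3 difference of CCN2 (-1.84 to -1.58) keeping 6 of 8.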

How the data were processed

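RNA sequencing of 12 libraries (6 groups of 2, grouped by the labels) was used. The authors deposited raw counts per gene, as whole numbers, without normalization. Per the study's methods, libraries were stranded and poly(A)-selected, and paired reads were aligned with HISAT2 in bcbio-nextgen. Salmon with tximport is also described, and which of them gave the counts is not stated. The processing notes name bcl2fastq and hg38. No per-sample column was left unmapped, and no count was changed.

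Counts were TMM-normalised and the 18415 genes averaging 5 counts or more were fitted in edgeR (version 4.0.16, R 4.3.3, quasi-likelihood, robust, prior count 2) over all 6 groups, leaving 6 residual degrees of freedom. The 11 contrasts were tested two-sided, with Benjamini-Hochberg adjustment over all tested genes. CPM were TMM-scaled, and levels between genes were divided by the exon length of GENCODE 44, which held 99.1% of the gene IDs. Intervals are 95%. Likeness was Pearson's r over 12 libraries. The code was tested on simulated data. The common biological coefficient of variation was 0.205, and 2 libraries a group limit the precision.

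Alternatives were RLE size factors, library totals, no filter, DESeq2 (1.42.0), a replicate block, a GC correction (lowess of each library's log2 deviations on gene GC, span 0.3), only the groups compared, and leaving out each library. The members and lists were chosen with earlier results of these data known. Named are the 6 members whatever their values, the 5 genes most like each abundant member, the hairpin targets, and the up to 3 most changed genes per direction of each list in a contrast that called a member, plus the few others needed to account for a small count. The values of 1 listed gene are not reported here.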

Additional observations from a re-analysis of the deposited data

Results flagged for a closer look

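The response of CCN2 to shZZZ3 differed between the lines, by a test of the difference itself. The log2 fold change against shNT was -0.91 in YT and 0.83 in TC, and their difference was -1.74 (SE 0.318, edgeR with Benjamini-Hochberg adjustment, adjusted p = 0.0123). The 2 YT shZZZ3 libraries lay below both YT shNT libraries and the 2 TC shZZZ3 libraries above both TC shNT libraries. ZZZ3 itself was not called lower in TC shZZZ3, so the depth of the knock-down in the lines was not matched with certainty. Replicates of TC shNT and of YT shZZZ3 differed most over all genes of the 6 groups (chi-square per gene 86.8 and 79.4), and leaving out any 1 of these 4 libraries kept the call (adjusted p = 0.0162 to 0.0349), while it ended without replicate 1 of TC shZZZ3 (0.0691) or replicate 2 of YT shNT (0.0825). No cause of the difference was tested.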

How the results depend on the processing

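Of 654 values of single members under other settings, 568 kept their direction and their side of the threshold, 38 came to pass it, 30 no longer passed it, and 18 changed sign, all of them uncalled values. With 2 libraries a group, leaving out 1 costs much of the power, and the number of members called then ranged from 0 to 0 for shYEATS2 in TC, 0 to 1 for shZZZ3 in TC, 0 to 0 for either hairpin in YT (2 and 1 as reported), 0 to 2 for the YEATS2 difference between the lines and 0 to 1 for the ZZZ3 difference. It ranged from 0 to 0 for the lines under shNT, 0 to 3 under shYEATS2, 0 to 0 under shZZZ3, 0 to 2 for the hairpins in TC and 0 to 1 for the hairpins in YT. Several counts of called members rose by 1 or 2 with other settings, and the cause was not tested. DESeq2 and the GC correction also called more of all genes. For the ZZZ3 difference these calls were 795 as reported, 1274 with DESeq2 and 1944 with the GC correction. In the fit to the groups compared they were 748. For the lines under shNT they were 1699 as reported, 2255 with DESeq2 and 3401 with the GC correction. The hairpin comparison in YT called 0 members with library totals, 2 without the filter, 3 with DESeq2, 3 with the GC correction and 2 in the fit to the groups compared. Over all genes it called 1327 as reported and 1273 with library totals. Without the filter it called 2322 of 32987, with DESeq2 1797 and with the GC correction 2959. The ZZZ3 difference called 2 without the filter, with DESeq2, with the GC correction and in the fit to the groups compared. The lines under shNT and the hairpins in TC each called 1 without the filter, with DESeq2 and with the GC correction, the YEATS2 difference called 1 with DESeq2 and with the GC correction, and shZZZ3 in TC called 2 with DESeq2. Over all genes, the hairpins in TC called 221 as reported, 751 of 32987 without the filter, 492 with DESeq2 and 660 with the GC correction. The YEATS2 difference called 1725 as reported, 2248 with DESeq2 and 3606 with the GC correction. With shZZZ3 in TC, 281 were called as reported and 532 with DESeq2.

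A replicate block called 2 members for the ZZZ3 difference, 1 each for the YEATS2 difference, the lines under shNT and the hairpins in TC, 2 for the hairpins in YT and 3 for shYEATS2 in YT, where it added CCN2 (-0.68, adjusted p = 0.0365), and it changed no other count. It also called more of all genes, 1021 against 795 as reported for the ZZZ3 difference and 2178 against 1725 for the YEATS2 difference. For the lines under shNT it called 2225 against 1699, and for shYEATS2 in YT 4656 against 3821. The hairpins gave 331 against 221 in TC and 1654 against 1327 in YT. The labels give only a number, and the deviations of same-numbered libraries correlated between -0.44 and 0.90 over 15 pairs of groups (7 above 0.1, 4 below -0.1), so the numbers were not taken as pairs. A crossed replicate block with the YT shNT numbers swapped, chosen after seeing the data, called 1 member for shZZZ3 in YT and 1 for the lines under shNT.

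Signs changed as follows. CCN5 with shZZZ3 in YT, 0.0012 as reported, was -0.0074 with library totals, -0.10 with the GC correction, -0.017 with the crossed block and -0.25 to 0.37 without 1 library. CCN5 with shYEATS2 in TC ranged from -1.65 to 0.52. CCN3 ranged from -0.23 to 0.64 with shYEATS2 and -0.27 to 0.23 with shZZZ3 in TC, from -0.041 to 0.15 with shZZZ3 in YT, from -0.17 to 0.33 for the ZZZ3 difference, from -0.044 to 0.46 for the lines under shNT and from -0.18 to 0.69 for the hairpins in TC. CCN1 with shYEATS2 in TC ranged from -0.023 to 0.83, and CCN4 for the lines under shNT from -0.0695 to 0.18.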
